A study of Mus musculus with 6 samples.

Results

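ISG15 is a small ubiquitin-like protein that interferon makes cells produce and attach to other proteins, and several enzymes that attach ADP-ribose are induced by the same signal. The 10 genes described here encode ISG15, the enzymes that attach and remove it, and the interferon-linked ADP-ribosylation enzymes. They were taken by symbol (Isg15, Uba7, Ube2l6, Herc6, Trim25, Usp18, Parp9, Dtx3l, Parp12 and Parp14), and all 10 were found once among the 22063 genes of the count table. RNA sequencing covered 6 samples of mouse macrophages, 3 of CAR-Trem2-Ms and 3 of CAR-Ms. Both groups carried a lentiviral chimeric antigen receptor, a synthetic receptor that points a cell at a chosen target, and had been cultured for 7 days with M-CSF, a macrophage growth factor, at 20 ng/mL. CAR-Trem2-Ms were labelled TERM2+ in the genotype field, induced with VD3 (1 µM, 24 h) and sorted by flow cytometry. CAR-Ms were labelled WT, and whether they also received VD3 is not settled by the labels, since the shared protocol text names it for all samples. Trem2 status, the sort and possibly VD3 therefore changed together and cannot be told apart. The sources used here do not give the receptor's target, the promoter that drove it, or the age and strain of the animals. Nothing in the labels ties the replicates to different cultures or mice, so the p-values speak of the spread among these 6 samples, and that spread may be technical.

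ISG15 is attached in a chain of steps that resembles ubiquitin conjugation. UBA7, the E1, activates ISG15, UBE2L6, the E2, carries it, and an E3 ligase places it on the target protein, while the protease USP18 takes it off again. In the mouse the main E3 ligase is HERC6, in humans its relative HERC5. The PARP enzymes use NAD+ to add ADP-ribose to proteins, and PARP9 does so in a complex with the ubiquitin ligase DTX3L. Many of these genes are switched on through the interferon-stimulated response element (ISRE), a DNA motif bound by interferon-activated transcription factor complexes and by interferon regulatory factors.

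Promoter windows of 300 bases, 250 before to 50 after the RefSeq gene start (GRCm38.p6), were matched for 7 of the 10 genes; none was used here for Usp18, Parp9 and Parp14. The ISRE core GAAANNGAAA was searched on both strands and occurred in 3.44% of all 32851 windows. Among the 7 windows it was found in that of Isg15, where it occurred 3 times in overlapping copies, a number of matches reached by 5 of the 32851 windows. The shorter core AAANNGAAA, which every full match contains and which was searched after the full core, occurred in 10.6% of windows; it was found in those of Isg15 and Uba7. The GAS motif TTCNNNGAA occurred in 8.3% of windows and in none of the 7. A missing match says only that these letters are not in the window. The 100 bases before the RefSeq start of Isg15 are shown for their run of ISRE cores, in capitals. Beside them is the same stretch of Ube2l6 and Trim25, members with smaller fold changes and no match. Herc6, Dtx3l and Parp12 had no match of either core, and a link of matches to fold changes was not tested. For Uba7, 30 bases are shown with its short core, on the opposite strand, in capitals. The GENCODE models of Trim25 and Uba7, given below, begin at 88999376 and 107975505. Part of the Trim25 stretch and all of the Uba7 stretch therefore lie inside those models.
Isg15, chr4:156200819-156200918, minus strand: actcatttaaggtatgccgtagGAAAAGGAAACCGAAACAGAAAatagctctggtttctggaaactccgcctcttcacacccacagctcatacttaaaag
Uba7, chr9:107975530-107975559, plus strand: ctcagtctagTTTCACTTTtggtttcctga
Ube2l6, chr2:84798728-84798827, plus strand: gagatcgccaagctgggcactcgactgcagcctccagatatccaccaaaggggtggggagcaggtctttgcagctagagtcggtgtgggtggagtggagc
Trim25, chr11:88999303-88999402, plus strand: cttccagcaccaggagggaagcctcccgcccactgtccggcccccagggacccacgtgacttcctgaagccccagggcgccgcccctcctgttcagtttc

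Total counts ran from 9804959 to 12558021 in CAR-Trem2-Ms and from 14204468 to 15913100 in CAR-Ms. Trem2 averaged 191.2 ± 7.56 CPM in CAR-Trem2-Ms and 76.6 ± 2.31 CPM in CAR-Ms (SD, n = 3 each), in the direction of the label. CPM are counts divided by library totals with TMM factors, which scale libraries on the assumption that most genes do not differ. The 7 macrophage markers all had reads and summed to 3430 to 3440 CPM in CAR-Trem2-Ms and 3290 to 3310 CPM in CAR-Ms. Members of that sum differed in direction: Csf1r averaged 862.1 CPM in CAR-Trem2-Ms and 1264 CPM in CAR-Ms, Lyz2 1776 and Fcgr1 131.7 CPM in CAR-Trem2-Ms against 1315 and 35.8 CPM in CAR-Ms, and C1qa averaged 0.736 CPM in CAR-Trem2-Ms and 0.199 CPM in CAR-Ms and was not tested. On TPM Lyz2 was lower in CAR-Trem2-Ms (log2 fold change -0.27). The keratinocyte markers Krt5, Krt1 and Krt10 had no reads, although the labels give the tissue as skin. Markers of other cells had fewer reads. The 6 neutrophil markers summed to 2.22 to 4.99 CPM in CAR-Trem2-Ms and 15.4 to 27.4 CPM in CAR-Ms. The 5 of T and NK cells summed to 2.68 to 4.14 CPM in CAR-Trem2-Ms and 0.263 to 0.539 CPM in CAR-Ms, and the 3 of B cells to 2.59 to 3.51 CPM in CAR-Trem2-Ms and 7.60 to 11.8 CPM in CAR-Ms. Those of dendritic cells, fibroblasts and endothelium summed to no more than 4.18 CPM in any sample. The 5 markers of plasmacytoid dendritic cells, which make much interferon, summed to 60.3 to 75.8 CPM in CAR-Trem2-Ms and 119 to 121 CPM in CAR-Ms, nearly all from Tcf4; Siglech had no reads in CAR-Trem2-Ms and 0.110 CPM in CAR-Ms. The 13 mitochondrially encoded genes took 13.5 ± 0.238% of counts in CAR-Trem2-Ms and 4.65 ± 0.0542% in CAR-Ms (SD, n = 3 each). The part of these shifts in the results was not tested.

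All 10 genes were higher in CAR-Trem2-Ms in edgeR's quasi-likelihood test (Benjamini-Hochberg adjusted p under 0.05), and in each the groups did not overlap in CPM. Across the 11402 genes tested, 81.1% were called, 40.9% higher and 40.1% lower, and 41.1% had all CAR-Trem2-Ms samples above all CAR-Ms samples, so a call by itself was common. By size, 7 of the 10 were called higher by at least 2-fold, against 18.7% of all genes. The median log2 fold change was 2.03 over the 10 genes and 0.03 over all genes tested. Together the 10 genes summed to 539 ± 3.31 CPM in CAR-Trem2-Ms and 248.4 ± 3.27 CPM in CAR-Ms without TMM factors (SD, n = 3 each). In these bulk samples, fewer cells making a transcript and less RNA per cell cannot be told apart.

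**Figure D1:**
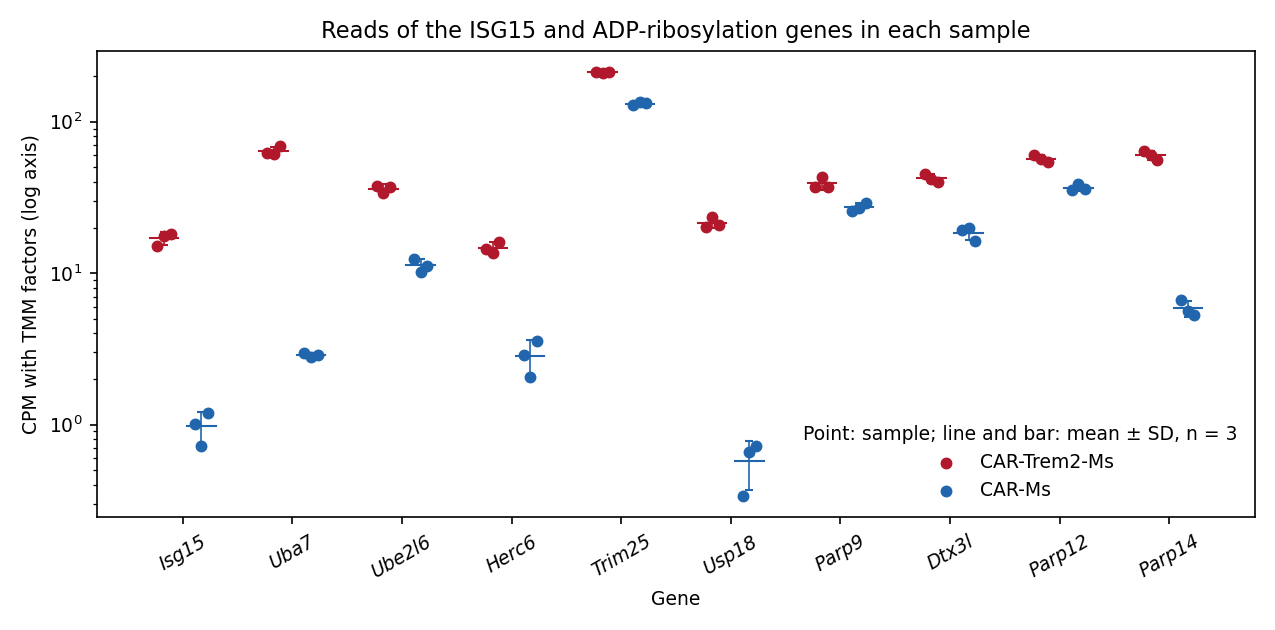
Level of each gene in CPM with TMM factors (log axis) in every sample of CAR-Trem2-Ms and CAR-Ms; points are samples, lines and bars the mean ± SD (n = 3 each). CAR-Trem2-Ms lie above CAR-Ms for every gene, with the widest gaps for Usp18, Uba7, Isg15 and Parp14.

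Isg15, the modifier itself (ENSMUSG00000035692, chromosome 4, 156199424 to 156200818, minus strand, GRCm38), had 15.1, 17.5 and 18.2 CPM in CAR-Trem2-Ms and 1.01, 0.724 and 1.19 CPM in CAR-Ms. The lowest CAR-Trem2-Ms sample stood more than 10 CPM above the highest CAR-Ms sample. The CAR-Ms values rest on 15, 12 and 18 reads, against 181, 165 and 213 in CAR-Trem2-Ms. The gene rose by 4.12 ± 0.23 on the log2 scale (SE), or 17.3-fold (edgeR, adjusted p = 6.4e-16), a fold change above that of 99.4% of tested genes.

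Usp18, the protease that removes ISG15 and also damps signalling at the interferon receptor (chromosome 6, 121245906 to 121270917, plus strand), had the largest fold change of the 10. It read 20.2, 23.5 and 20.7 CPM in CAR-Trem2-Ms and 0.337, 0.663 and 0.725 CPM in CAR-Ms. In CAR-Ms this was 5, 11 and 11 reads, the thinnest support among the 10 genes, and the coefficient of variation there was 36.2%, against 8.14% in CAR-Trem2-Ms. The rise was 5.19 ± 0.23 on the log2 scale (± SE, edgeR, adjusted p = 5.2e-18), and 4.92 without CAR-Ms replicate 1, its lowest sample. A gene model on the opposite strand, Gm44148, shares 4.44% of the exonic bases of Usp18. Counting is not stated to use strand, so some reads could belong to either.

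Uba7, the E1 that starts conjugation (chromosome 9, 107975505 to 107984060, plus strand), had 62.1, 61.5 and 68.8 CPM in CAR-Trem2-Ms and 2.97, 2.77 and 2.90 CPM in CAR-Ms. Both groups were tight, with coefficients of variation of 6.3% in CAR-Trem2-Ms and 3.4% in CAR-Ms. It rose by 4.48 ± 0.12 on the log2 scale, or 22.2-fold (edgeR, adjusted p = 1.4e-23). A neighbouring gene model on the same strand, Gm20661, shares 3.48% of the exonic bases of Uba7, so some reads could belong to either.

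Ube2l6, the E2 (chromosome 2, 84798828 to 84810335, plus strand), moved less than the E1. Its values were 37.9, 33.6 and 37.1 CPM in CAR-Trem2-Ms and 12.4, 10.1 and 11.2 CPM in CAR-Ms, a rise of 1.69 ± 0.11 on the log2 scale, or 3.23-fold (edgeR, adjusted p = 5.0e-14). The groups were well apart, with over 20 CPM between their nearest samples. Its closest relative Ube2l3, a ubiquitin E2, fell by 0.74 on the log2 scale, to 120.0 CPM in CAR-Trem2-Ms against 200.8 CPM in CAR-Ms; it was picked out after its value was seen.

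The E3 ligases among the 10 genes differed in size of change. Herc6, the main ISG15 ligase of the mouse (chromosome 6, 57581000 to 57664632, plus strand), had 14.5, 13.5 and 16.1 CPM in CAR-Trem2-Ms and 2.90, 2.05 and 3.56 CPM in CAR-Ms, a rise of 2.38 ± 0.20 on the log2 scale (SE; edgeR, adjusted p = 1.1e-11). The CAR-Ms samples spread with a coefficient of variation of 26.6% but stayed far below the CAR-Trem2-Ms samples. A gene model on the same strand, Gm45193, shares 13.7% of the exonic bases of Herc6. It is not among the counted genes, so some Herc6 reads could belong to it. Trim25, a ubiquitin ligase that activates the RNA sensor RIG-I and has also been described as an ISG15 ligase (chromosome 11, 88999376 to 89020293, plus strand), was the most abundant of the 10 in CPM. It read 212.9, 210.0 and 211.6 CPM in CAR-Trem2-Ms and 128.4, 134.2 and 131.9 CPM in CAR-Ms. On counts it rose by 0.69 ± 0.04 on the log2 scale (edgeR, adjusted p = 5.7e-16). On the authors' TPM, however, it was lower, at 38.2 ± 1.33 TPM in CAR-Trem2-Ms and 44.3 ± 1.98 TPM in CAR-Ms (SD, n = 3 each), with no overlap between the groups.

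Parp14, a large ADP-ribosyltransferase with macrodomains that bind ADP-ribose (chromosome 16, 35832874 to 35871544, minus strand), had the largest fold change of the ADP-ribosylation genes. It read 64.1, 60.7 and 55.7 CPM in CAR-Trem2-Ms and 6.68, 5.61 and 5.27 CPM in CAR-Ms. The rise was 3.36 ± 0.11 on the log2 scale, 10.3-fold (edgeR, adjusted p = 3.2e-21). Every CAR-Trem2-Ms sample was above 50 CPM while no CAR-Ms sample reached 7. A gene model on the same strand, Gm49730, shares 1.18% of the exonic bases of Parp14.

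Dtx3l and Parp9, whose proteins work as a pair, lie head to head on chromosome 16 (Dtx3l 35926511 to 35939151, minus strand; Parp9 35938470 to 35972605, plus strand). They overlap by 682 bases and share 458 exonic bases, which is 8.0% of the exonic bases of Dtx3l and 9.4% of those of Parp9. Counting is not stated to use strand, so reads from that stretch cannot be told apart. Dtx3l read 45.2, 41.7 and 39.7 CPM in CAR-Trem2-Ms and 19.2, 19.8 and 16.2 CPM in CAR-Ms, a rise of 1.2 ± 0.10 on the log2 scale (edgeR, adjusted p = 6.9e-12). Parp9 read 37.0, 43.4 and 37.0 CPM in CAR-Trem2-Ms and 25.6, 27.0 and 29.3 CPM in CAR-Ms, a rise of 0.52 ± 0.09 (edgeR, adjusted p = 1.0e-05). This was the smallest change of the 10 genes, and without CAR-Trem2-Ms replicate 2, its highest sample, it was 0.44 (edgeR, adjusted p = 0.00017).

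Parp12, a mono-ADP-ribosyltransferase with zinc fingers (chromosome 6, 39086410 to 39118349, minus strand), was close to Parp9 in the size of its change. It read 60.2, 56.5 and 54.0 CPM in CAR-Trem2-Ms and 35.4, 38.6 and 35.8 CPM in CAR-Ms, a rise of 0.64 ± 0.07 on the log2 scale (edgeR, adjusted p = 7.5e-09). The groups did not overlap in CPM, but on TPM they did, at 18.2 ± 0.881 TPM in CAR-Trem2-Ms and 18.8 ± 0.900 TPM in CAR-Ms (SD, n = 3 each).

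The scale therefore decided the direction of the 3 genes with the smallest changes. On log2(TPM + 1) in limma, 7 of the 10 genes were higher, Trim25 was lower at -0.21 (adjusted p = 0.0095), and Parp9 at -0.16 (adjusted p = 0.24) and Parp12 at -0.05 (adjusted p = 0.56) did not pass. On that scale 17.5% of all 10824 tested genes were called higher and 64.2% lower, and the median of all genes was -0.63, against 0.03 with TMM factors and 0.26 with upper quartile factors. Relative to its own median, the TPM change was 0.42 for Trim25, 0.47 for Parp9 and 0.58 for Parp12. The ratio of TPM to CPM was lower in CAR-Trem2-Ms than in CAR-Ms for most genes, by a median factor of 0.619 over the 9946 genes that averaged 50 reads or more per sample (5th to 95th percentile 0.515 to 0.700). For 7 of the members the factor lay between 0.601 and 0.626, but it was 0.536 for Trim25, with 7.55% of genes below it, 0.658 for Usp18 and 0.869 for Herc6. For Herc6 the ratio also differed among CAR-Trem2-Ms, at 0.208, 0.210 and 0.457, against 0.335 to 0.337 in CAR-Ms. The part of these ratios in the direction on TPM was not tested. The other 7 genes kept their direction and their call on TPM, with changes of 3.30 for Usp18, 3.11 for Isg15, 3.10 for Uba7, 2.0 for Parp14, 1.38 for Herc6, 0.94 for Ube2l6 and 0.45 for Dtx3l. With RLE factors, upper quartile factors and library totals, all 10 were called higher.

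**Figure D2:**
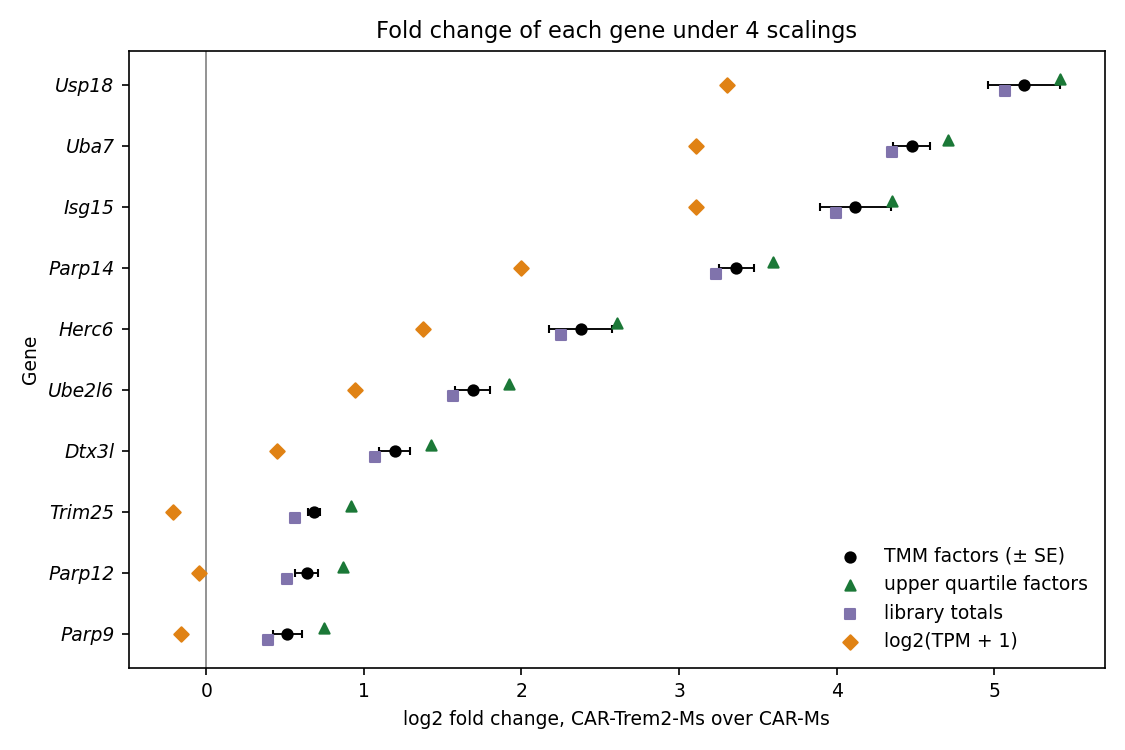
Log2 fold change of each gene, CAR-Trem2-Ms over CAR-Ms, with TMM factors (black, ± SE), upper quartile factors, library totals and log2(TPM + 1). The TPM points lie left of the rest for every gene and cross 0 for Trim25, Parp12 and Parp9.

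Levels of different genes are set side by side on the TPM scale, which the authors scaled by gene length; the lengths are not stated, and the ratio of TPM to CPM did not differ between libraries by the same factor in every gene, so the order is approximate. In CAR-Trem2-Ms Isg15 was highest at 41.1 ± 4.27 TPM, next to Trim25 at 38.2 ± 1.33 TPM, with ranges that overlapped. Below them came Ube2l6 at 27.2 ± 1.60 TPM, Uba7 at 19.9 ± 1.29 TPM, Parp12 at 18.2 ± 0.881 TPM, Usp18 at 14.7 ± 1.3 TPM and Parp9 at 13.4 ± 1.91 TPM (SD, n = 3 each). Uba7 and Parp12, and Usp18 and Parp9, were neighbours that overlapped. Parp14 and Dtx3l were level at 7.89 ± 0.518 and 7.87 ± 0.468 TPM, and Herc6 was lowest at 4.40 ± 2.55 TPM, with 1 sample in the range of Parp14. In CAR-Ms the order was another one. Trim25 was highest at 44.3 ± 1.98 TPM, then Parp12 at 18.8 ± 0.900 TPM, Parp9 at 15.0 ± 1.37 TPM, Ube2l6 at 13.7 ± 1.34 TPM and Dtx3l at 5.51 ± 0.559 TPM (SD, n = 3 each). Parp9 and Ube2l6 overlapped there. Isg15 came next at 3.93 ± 0.953 TPM, below every Dtx3l sample, and Uba7, Parp14, Herc6 and Usp18 lay at 1.43 ± 0.0751, 1.23 ± 0.151, 0.953 ± 0.255 and 0.600 ± 0.219 TPM, each overlapping its neighbour in that order. Herc6 in CAR-Trem2-Ms had 3.01, 2.84 and 7.34 TPM although its CPM were alike, so its TPM in replicate 3 does not follow from its reads alone; the cause was not tested.

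Ratios of reads between genes of 1 library do not depend on how libraries are scaled. The E1 to E2 ratio, Uba7 over Ube2l6, was 1.64, 1.83 and 1.85 in CAR-Trem2-Ms and 0.239, 0.274 and 0.259 in CAR-Ms. The E1 thus gained on the E2 by 2.79 on the log2 scale. Herc6 over Trim25 was 0.0693 ± 0.00591 in CAR-Trem2-Ms and 0.0216 ± 0.00591 in CAR-Ms, and Parp14 over Parp12 was 1.06 ± 0.023 in CAR-Trem2-Ms and 0.160 ± 0.0244 in CAR-Ms (SD, n = 3 each). Dtx3l over Parp9, genes that start beside each other, was 1.22, 0.961 and 1.07 in CAR-Trem2-Ms and 0.749, 0.736 and 0.554 in CAR-Ms. Isg15 over Usp18 was 0.748, 0.747 and 0.877 in CAR-Trem2-Ms and 3.0, 1.09 and 1.64 in CAR-Ms, so the protease gained on the modifier; the CAR-Ms ratios vary with the few Usp18 reads, and the log2 difference of -1.15 was -0.76 without CAR-Ms replicate 1. Each of the 5 ratios separated the groups, with a two-sided exact permutation p = 0.1, the smallest that 3 against 3 samples allow. These pairs were chosen by role after the values were known.

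**Figure D3:**
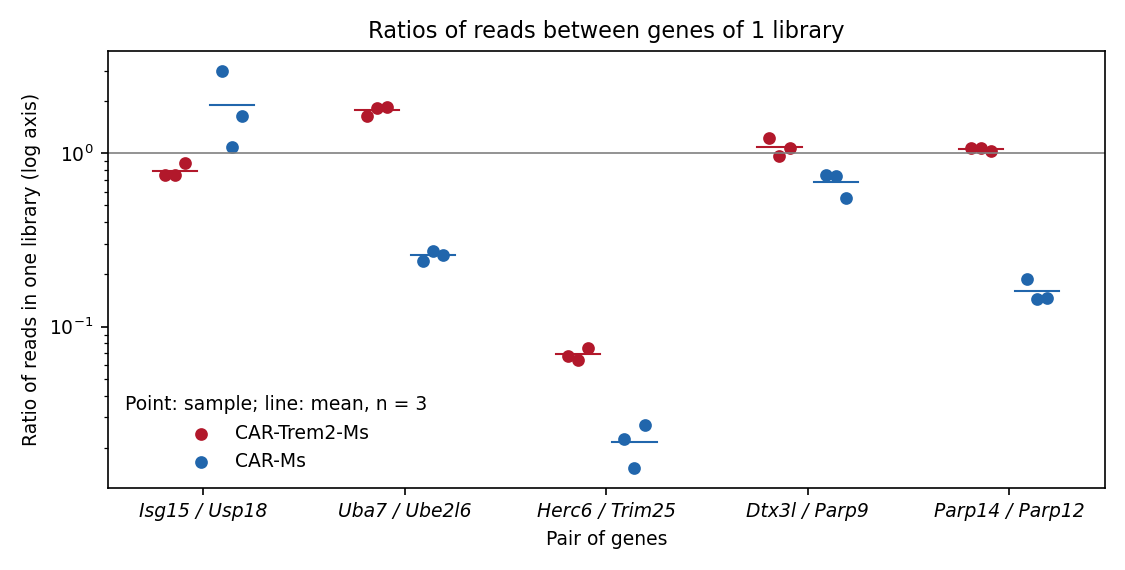
Ratio of reads between pairs of genes in the same library (log axis) for CAR-Trem2-Ms and CAR-Ms; points are samples and lines the means (n = 3 each). Isg15 over Usp18 is the pair with lower ratios in CAR-Trem2-Ms, and the other 4 are higher there.

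Genes that work with ISG15 outside the conjugation chain did not move one way. Of 13 tested, 7 rose and 6 fell, with a median log2 fold change of 0.50. Among all genes tested on counts, 40.9% were called higher and 40.1% lower. On TPM 3 were higher and 7 lower, with a median of -0.19. The medians of all genes were 0.03 with TMM factors and -0.63 on TPM. On TPM 17.5% of all genes were called higher and 64.2% lower. Stat2, which brings USP18 to the interferon receptor, rose by 2.54 ± 0.09 on the log2 scale (SE), to 62.2 ± 3.05 CPM in CAR-Trem2-Ms against 10.7 ± 0.839 CPM in CAR-Ms (SD, n = 3 each). Bst2, an interferon-induced tether of budding viruses, rose by 2.25 ± 0.07, to 107.8 ± 3.10 CPM in CAR-Trem2-Ms against 22.8 ± 2.21 CPM in CAR-Ms, and Usp21, a protease reported to act on ISG15 as well as ubiquitin, by 1.22 ± 0.12. Skp2, part of a ubiquitin ligase that acts on USP18, fell by 2.16 ± 0.09, to 21.7 ± 4.40 CPM in CAR-Trem2-Ms against 97.3 ± 2.45 CPM in CAR-Ms. These 4 genes kept their direction and call on TPM. Arih1, the E3 ligase of this list, fell by 1.09 ± 0.03 on counts and by 2.28 on TPM. It averaged 178.3 ± 4.95 CPM in CAR-Trem2-Ms and 379.3 ± 8.99 CPM in CAR-Ms, and was picked out after its value was seen.

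The rest of the PARP family split. The test covered 12 of these genes: 6 rose, 5 fell, and no call was made for Parp16, with 7.77 ± 0.910 CPM in CAR-Trem2-Ms and 7.55 ± 0.980 CPM in CAR-Ms. All genes tested also split, with 40.9% called higher and 40.1% lower. Parp10, a mono-ADP-ribosyltransferase that interferon also induces, was closest to Parp14 in size, with a rise of 3.23 ± 0.12 on the log2 scale (SE), to 51.3 ± 6.22 CPM in CAR-Trem2-Ms against 5.49 ± 0.202 CPM in CAR-Ms. Parp3, which acts in DNA break repair, rose by 2.51 ± 0.16 and Parp6 by 1.18 ± 0.08. Tnks2, a tankyrase that builds ADP-ribose chains, fell by 1.67 ± 0.05, to 97.2 ± 11.1 CPM in CAR-Trem2-Ms against 307.5 ± 4.80 CPM in CAR-Ms. The median over these 12 genes was 0.37, against 0.03 for all genes. On TPM it was -0.33, against -0.63 for all genes, with 4 higher and 6 lower. Of all genes on TPM, 17.5% were called higher and 64.2% lower. Parp10, Parp3, Parp6 and Tnks2 kept their direction on TPM. Zc3hav1 and Tiparp, picked out after their values were seen, fell by 0.29 ± 0.03 and 0.96 ± 0.04 on counts. They stood at -0.92 and -1.62 on TPM, and Zc3hav1 at -0.06 with upper quartile factors.

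**Figure D4:**
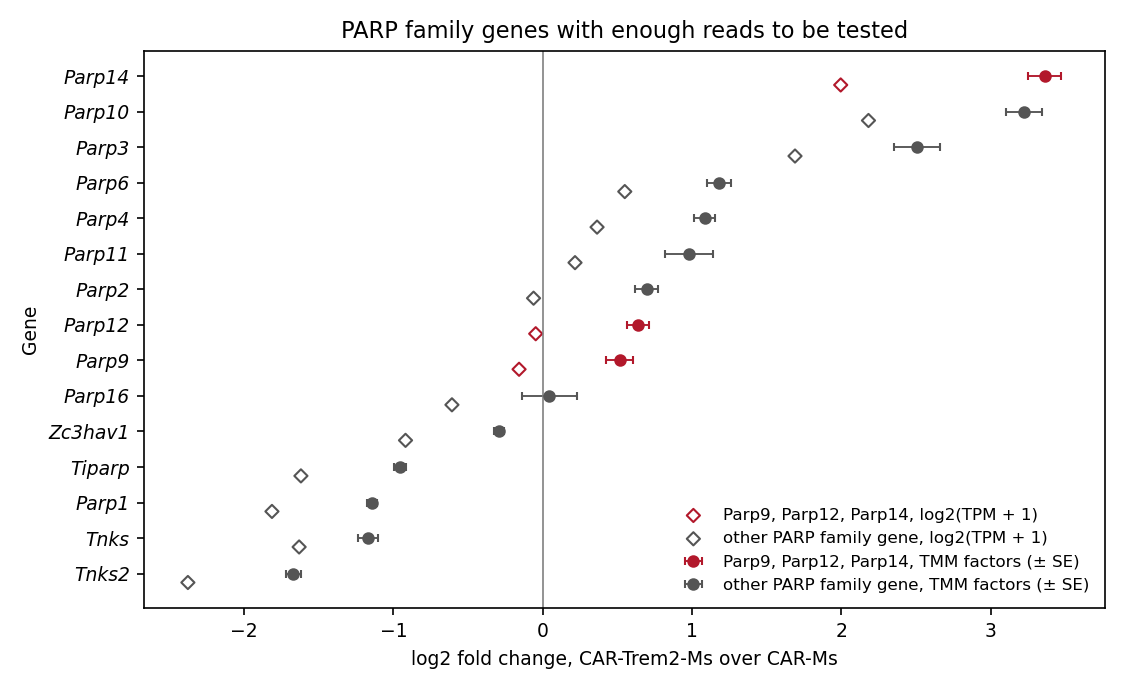
Log2 fold change, CAR-Trem2-Ms over CAR-Ms, of the 15 PARP family genes with enough reads, with TMM factors (filled, ± SE) and on log2(TPM + 1) (open); Parp9, Parp12 and Parp14 are in red. Parp14 and Parp10 lead, Tnks2 is lowest, and Parp9 and Parp12 lie between, right of 0 with TMM factors and left of it on TPM.

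Enzymes that take ADP-ribose off, and proteins that read it, were mixed. With 11 tested, 6 were higher, 4 lower and Rnf146 not called, with 40.7 ± 1.45 CPM in CAR-Trem2-Ms and 42.0 ± 2.77 CPM in CAR-Ms. All genes tested were mixed too, with 40.9% called higher and 40.1% lower. Parg, which cuts ADP-ribose chains, fell by 1.66 ± 0.06 on the log2 scale (SE), to 35.4 ± 1.63 CPM in CAR-Trem2-Ms against 111.8 ± 4.30 CPM in CAR-Ms. Macrod1, a hydrolase of single ADP-ribose groups, rose by 1.47 ± 0.20 and Nudt16, a hydrolase that can trim ADP-ribose, by 2.15 ± 0.21; Gdap2, which has a macrodomain, fell by 1.68 ± 0.11. The list's median was 0.16 with TMM factors and -0.64 on TPM, with 3 higher and 7 lower there. The medians of all genes were 0.03 and -0.63, and on TPM 17.5% of all genes were called higher and 64.2% lower. Among 8 relatives of Dtx3l and Herc6, 3 rose, 3 fell and 2 were not called, with a median of 0.00; on TPM, 1 of 7 tested was higher and 5 lower, with a median of -0.61. Dtx3, a short DELTEX protein, rose by 2.2 ± 0.07 to 105.5 ± 4.48 CPM in CAR-Trem2-Ms against 23.0 ± 0.486 CPM in CAR-Ms, while Dtx2 and Herc1 fell by 0.65 ± 0.09 and 0.59 ± 0.04. Herc3 rose by 0.60 ± 0.10 with TMM factors but stood at -0.08 on TPM, and Dtx4 and Dtx1 were not called, with 60.7 and 1.46 CPM in CAR-Trem2-Ms and 59.3 and 1.51 CPM in CAR-Ms.

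Among the genes that carry or restrain the interferon signal to the ISRE, 9 of 11 tested were higher, 1 lower and 1 not called. Across all genes tested, 40.9% were called higher and 40.1% lower. The median log2 fold change was 1.14; on TPM 5 were higher and 3 lower, with a median of 0.21. Irf7, a transcription factor that amplifies the interferon response, rose by 4.92 ± 0.12 on the log2 scale (SE), to 72.0 ± 4.76 CPM in CAR-Trem2-Ms against 2.36 ± 0.18 CPM in CAR-Ms (SD, n = 3 each). Stat2, described above, was also in this list. Jak1, a kinase of the receptor, fell by 1.5 ± 0.04, to 104.0 ± 3.75 CPM in CAR-Trem2-Ms against 293.9 ± 8.14 CPM in CAR-Ms. Ifnar1, a receptor chain, was not called, with 71.1 ± 6.12 CPM in CAR-Trem2-Ms and 67.2 ± 1.53 CPM in CAR-Ms. On TPM Ifnar1 was lower at -0.59 (limma, adjusted p = 0.00021). The other kinase Tyk2 rose by 1.33 ± 0.05 on counts and 0.59 on TPM. The other chain Ifnar2 rose by 0.74 ± 0.05 on counts but stood at -0.0015 on TPM. Tyk2 and Ifnar2 were picked out after their values were seen. Ifnb1, which encodes interferon beta, was not tested, with 1 read over the CAR-Trem2-Ms samples and 0 over the CAR-Ms samples.

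The genes most like Isg15 were looked for among 10179 other genes that averaged 50 reads or more in the higher group, by the distance between log2 CPM values centred on each gene's mean over the 6 samples. Closest were the histone genes H2bc4 at a distance of 0.348 and H3c13 at 0.372, the heat shock chaperone Hspa1b at 0.411, Slfn4, a Schlafen family gene, at 0.466, and Irgm2, an interferon-induced GTPase, at 0.467. Their log2 fold changes were 4.21, 4.33, 4.04, 3.92 and 4.27, beside 4.12 for Isg15, and the distance over 6 samples in 2 groups mostly reflects that size. H2bc4, H3c13 and Hspa1b have near-identical copies that may share their reads, so their values are uncertain.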

How the data were processed

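The authors deposited 1 table for the 6 samples with raw read counts per gene, whole numbers whose totals differ between samples, and with TPM values, scaled by the authors for length and library, per the file headers. Build mm10 and the tools StringTie 1.3.1, HISAT2, Bowtie2 2.2.8 and fastp 0.18.0 are named per the submitters' processing notes; the sources used here do not say how reads were counted, on which annotation, or whether strand was used. Trizol extraction and a SMARTER mRNA library kit are given per the labels' protocols. Gene positions are those of GENCODE M21 (GRCm38), matched by Ensembl identifier; promoter sequences are from RefSeq (GRCm38.p6), matched by symbol.

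Counts of CAR-Trem2-Ms and CAR-Ms were compared by quasi-likelihood tests in edgeR 4.0.16 (R 4.3.3) after TMM scaling and filterByExpr, which kept 11402 genes, with Benjamini-Hochberg adjustment over all of them; a gene was called at an adjusted p under 0.05. All 10 members passed the filter. Standard errors were derived from log2 fold changes and F statistics. TPM were tested with limma 3.58.1 on log2(TPM + 1), which understates the change of low genes, over genes at 1 TPM or more in 3 samples. Alternatives were a replicate block, each sample left out in turn, library totals, upper quartile or RLE factors, limma-voom, DESeq2 1.42.0, a filter of 10 reads or none, and a log2 fold change of at least 1; a TPM pseudocount of 0.1 and the ratios of reads were added after seeing the data. The fits were also run on simulated data in which few genes changed, as many up as down. With 81.1% of genes called here, such data cannot test the scaling. Replicate pairs differed by more than sampling noise, with a chi-square of 2.19 to 3.34 per degree of freedom over genes with at least 20 reads. Each was counted as 1 sample, but this spread cannot show that they came from different cultures or mice. The members and the lists were chosen with earlier results of these data known. From each list, up to 4 called genes of the largest change with a mean of 50 reads in the higher group were named, and up to 2 of the most abundant that were not called; 2 of the genes so chosen are not reported here.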

Additional observations from a re-analysis of the deposited data

How the results depend on the processing

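At the adjusted p alone, all 10 genes were called higher in each alternative fit on counts, 140 of 140 fits of a gene; with at least 2-fold also required, 7 of the 10 were. Leaving out each sample in turn gave log2 fold changes of 3.92 to 4.27 for Isg15, 4.92 to 5.36 for Usp18, 2.17 to 2.57 for Herc6 and 0.44 to 0.56 for Parp9. On log2(TPM + 1) Trim25 reversed to -0.21, Parp9 to -0.16 and Parp12 to -0.047, and with a pseudocount of 0.1 to -0.21, -0.17 and -0.049 (limma, adjusted p = 0.0098, 0.24 and 0.56); the cause was not tested. Over all genes, 4668 were called higher and 4577 lower, but 5714 and 3606 with upper quartile factors, 1890 and 6946 on log2(TPM + 1), 1881 and 6927 with the pseudocount of 0.1, and 2136 and 1629 (3765 in all) at 2-fold or more. At 2-fold or more the lists held 5 called ISG15 pathway genes, 4 of other ubiquitin-like systems, 7 PARP family genes, 5 for ADP-ribose removal and 1 of the DELTEX and HERC families, fewer by construction. The log2 difference of Herc6 over Trim25 moved to 2.31 on TPM. With the replicate block 10 of the 10 genes were called and 9188 genes in all; deviations of samples with the same number correlated at 0.0283, -0.0274 and 0.0319, so the numbers were not taken as pairs. Depth limits Usp18 and Isg15 most, with 5 to 18 reads per CAR-Ms sample.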

Other observations

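Genes of the other ubiquitin-like systems did not share the rise of the ISG15 chain. Of 25 tested genes, 8 were higher in CAR-Trem2-Ms, 10 lower and 7 did not pass, with a median log2 fold change of 0.04. With upper quartile factors 15 were higher and 10 lower. On log2(TPM + 1) 2 were higher and 20 lower, with a median of -0.68. For all genes the medians were 0.03 with TMM factors and -0.63 on log2(TPM + 1). Whether the list of other ubiquitin-like genes differs from the ISG15 chain was not tested. Uba2, a subunit of the E1 for SUMO, fell by 1.31 ± 0.04 on the log2 scale (SE; edgeR), to 103.1 ± 2.57 CPM in CAR-Trem2-Ms against 255.5 ± 0.966 CPM in CAR-Ms (SD, n = 3 each). Uba6, an E1 for ubiquitin and FAT10, fell by 1.14 ± 0.07. Fau, a fusion of a ubiquitin-like protein and a ribosomal protein, rose by 1.78 ± 0.03, to 1096 ± 32.1 CPM in CAR-Trem2-Ms against 320.0 ± 2.66 CPM in CAR-Ms. These 3 genes kept their direction and call on TPM. Sumo3 and Atg3 were not called, with 131.5 and 74.2 CPM in CAR-Trem2-Ms and 133.5 and 72.4 CPM in CAR-Ms, and Ubd, which encodes FAT10, had no reads.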
